A study of Bos grunniens and Bos grunniens x Bos taurus with 12 samples.

Results

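Before a mammalian sperm can fertilize, it has to pass the cells and the glycoprotein coat around the egg, bind the egg membrane and fuse with it. Each step rests on proteins that male germ cells make in the testis, many of which are stored in or on the acrosome, the secretory vesicle that covers the sperm nucleus. The fusion proteins at the sperm surface include IZUMO1, which binds the egg receptor JUNO, and SPACA6, TMEM95, DCST1 and DCST2, loss of which blocks fertilization in mice. ADAM2 and SPACA4 act earlier, when sperm migrate to and bind the egg coat, and the acrosomal enzymes acrosin and the hyaluronidase PH-20 act on the matrix around the egg. IZUMO2 is a relative of IZUMO1 whose own function in fusion is less clear.

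The translation levels of these genes were examined by Ribo-seq, in which ribosomes shield the stretch of mRNA they are translating from nuclease and these ribosome footprints (RFs) are sequenced. Genes were chosen by symbol: IZUMO1, IZUMO2, SPACA6, TMEM95, DCST1, DCST2, ADAM2, SPAM1 (the gene of PH-20), ACR (the gene of acrosin) and SPACA4. Of these 10 symbols, 6 occur among the 20965 genes of the deposited tables: IZUMO1 (ENSBGRG00000020062), IZUMO2 (ENSBGRG00000020020), SPACA6 (ENSBGRG00000018412), DCST1 (ENSBGRG00000009624), ADAM2 (ENSBGRG00000013291) and SPACA4 (ENSBGRG00000021057). The symbols TMEM95, DCST2, SPAM1 and ACR are absent from the symbol column, in which 7303 genes have no entry. Among genes without a symbol, 4 carry a description that names one of these proteins, and they are given separately below. The tables hold no positions, and no sequence is shown.

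Testes of 3 male yaks at 6 months (juvenile), 3 at 18 months (puberty), 3 at 4 years (sexually mature) and 3 cattle–yaks, for which the labels give 4 years and sexual maturity, were compared, with 1 library per animal. Cattle–yak is the hybrid of cattle and yak, here of a Jersey sire and a Gannan yak dam according to the study's methods, and its males are sterile. The methods state that testes of mature yaks were taken after euthanasia and those of cattle–yaks by castration, whereas the labels give castration for all, so the way of collection and the genotype may not be separable.

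Library totals were 16304058 to 17862516 counts in yak at 4 years, 21309151 to 24542362 at 18 months, 25816963 to 37167651 at 6 months and 38437889 to 52616039 in cattle–yak. A count of 0 in a library still allows up to 3 counts, that is 0.168 to 0.184 CPM (counts scaled to the library total) in yak at 4 years and 0.0570 to 0.0780 CPM in cattle–yak, and this covers counting error only. One library stood apart from its group. In log2 CPM across genes, replicate 2 of yak at 18 months correlated at 0.949 to 0.952 with the libraries of 4 years, but at 0.771 and 0.816 with replicates 1 and 3 of its own age. Replicates 1 and 3 correlated with each other at 0.953, and within each of the other groups every pair reached at least 0.965. The edgeR results at 18 months are therefore given with and without this library. Somatic testis markers were present in all groups. The summed FPKM of 5 Sertoli cell markers was 608 to 838 in yak at 4 years and 1124 to 1381 in cattle–yak, that of 2 Leydig cell markers 58.8 to 188 and 580 to 1041, and that of 4 peritubular myoid cell markers 203 to 213 and 759 to 1250. The 3 epididymal markers together did not exceed 1.09 in any library.

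In mature yak, the 6 genes were translated at very different levels. FPKM, which divides the count by gene length and library total, allows levels of different genes to be compared. On this scale, ADAM2 was far above the others, with a mean of 1152 ± 176 (SD, n = 3), and ranked 93 of 20965 genes. IZUMO2 followed with 168 ± 22.1 FPKM and SPACA4 with 146 ± 48.6 FPKM, and the libraries of these neighbours overlapped. IZUMO1 had 45.3 ± 0.988 FPKM, DCST1 19.5 ± 7.19 FPKM and SPACA6 3.63 ± 0.358 FPKM, each without overlap with its neighbour. SPACA6 ranked 11780 of 20965 genes. In cattle–yak, the order of mean FPKM was ADAM2, IZUMO2, SPACA6, IZUMO1, SPACA4 and DCST1. The libraries of IZUMO1 and SPACA4 and those of SPACA4 and DCST1 overlapped there, while the other neighbours did not.

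**Figure D1:**
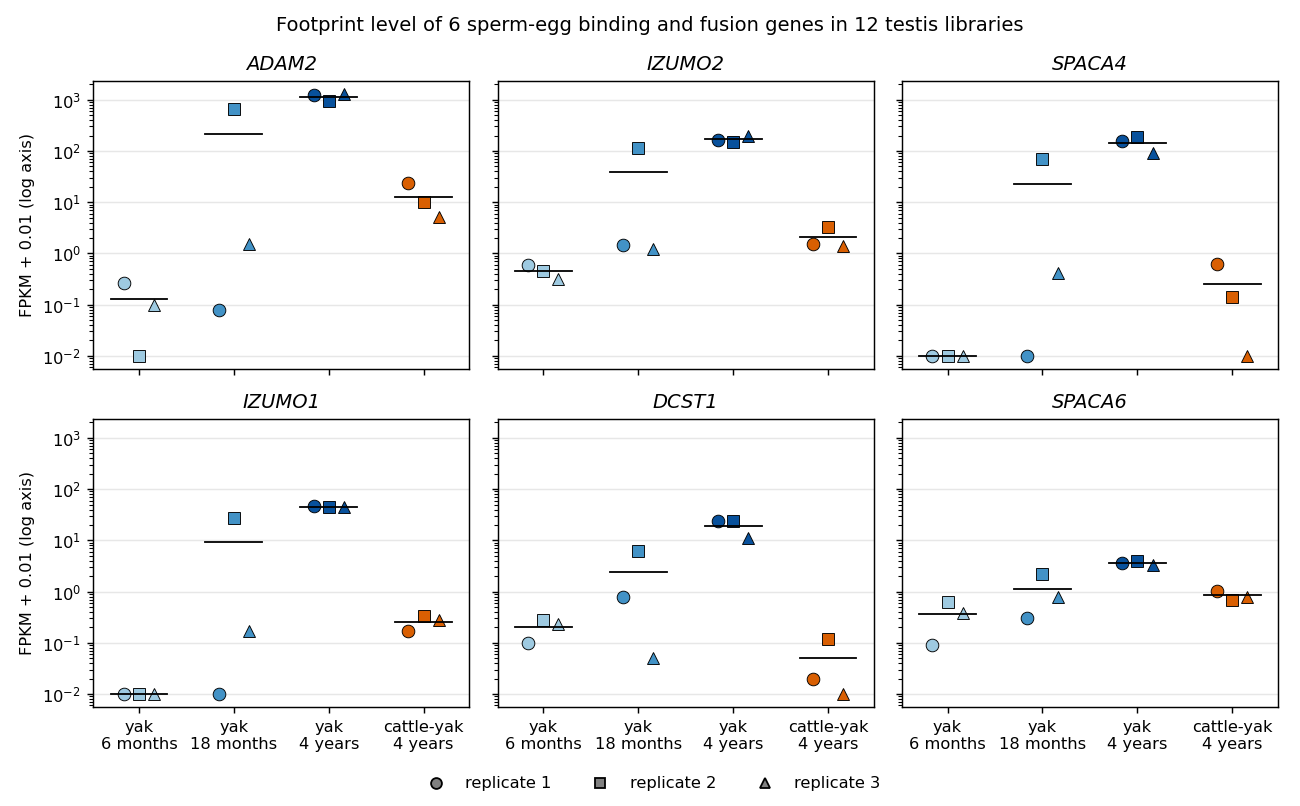
RF level of each gene in 12 testis libraries, as FPKM + 0.01 on a log axis, by group on the x axis, with 1 point per animal and a line at the group mean. Levels of 0 lie at the bottom at 0.01. For each gene the 3 libraries of yak at 4 years lie above the 3 cattle–yak libraries, and at 18 months replicate 2 (square) lies far above replicates 1 and 3 in every panel except that of SPACA6, where the gap is smaller (2.22 against 0.30 and 0.79 FPKM).

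The first comparison asks which of these genes are translated less in the testis of the sterile hybrid than in that of mature yak. All 6 were. Among all 16498 genes tested with edgeR's quasi-likelihood test, 27% were differentially translated genes (DTGs, adjusted p below 0.05 and a change of at least 2-fold) that fell in cattle–yak, and 44% were DTGs in either direction. The median log2 fold change of the 6 genes was -6.97, beside -0.0022 over all genes tested. All 6 kept their calls whichever of the 6 libraries was removed. From footprints of whole testis, fewer cells of a type, less mRNA per cell and fewer ribosomes per mRNA cannot be told apart.

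IZUMO1, the ligand of the egg receptor, had 865, 846 and 759 counts in the mature yaks and 9, 13 and 11 counts in the deeper cattle–yak libraries. In FPKM these were 46.34, 45.15 and 44.38 against 0.16, 0.32 and 0.27. The 3 mature yaks were nearly equal, and no cattle–yak came near them. The mean CPM was 179.5-fold lower in cattle–yak, and the log2 fold change was -7.49 (SE 0.234, edgeR adjusted p = 3.91e-07).

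SPACA6, a membrane protein of the same fusion machinery, behaved differently in size. It had 64, 72 and 54 counts in mature yak and 55, 26 and 29 counts in cattle–yak, or 3.58, 4.01 and 3.30 against 1.04, 0.69 and 0.77 FPKM. The groups did not overlap, but the mean CPM was only 4.42-fold lower, with a log2 fold change of -2.12 (SE 0.326, edgeR adjusted p = 0.00059). Cattle–yak had 23.0% of the mature yak mean FPKM of SPACA6 and at most 1.22% of that of any of the other 5 genes. A relatively high level of SPACA6 was not particular to cattle–yak. In yak at 6 months SPACA6 stood at 9.73% of its mature mean (2.20% to 16.8% by library). In replicates 1 and 3 of yak at 18 months it stood at 8.26% and 21.8%.

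DCST1, a transmembrane protein that acts with DCST2 in fusion, had 867, 873 and 377 counts in mature yak and 1, 9 and 0 counts in cattle–yak. Replicate 3 of mature yak had 11.21 FPKM, below the 23.62 and 23.69 FPKM of the others, and the cattle–yak libraries had 0.01, 0.11 and 0 FPKM. The mean CPM was 479-fold lower in cattle–yak, with a log2 fold change of -8.93 (SE 0.703, edgeR adjusted p = 1.41e-05). Most of the cattle–yak counts came from replicate 2. Without that library the counts are at the detection floor, and DCST1 was at least 596-fold lower.

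IZUMO2 had 1906, 1788 and 2085 counts in mature yak, or 160.34, 150.22 and 192.56 FPKM. In cattle–yak it had 55, 82 and 35 counts, or 1.54, 3.22 and 1.38 FPKM. Its mean CPM was 82.1-fold lower, with a log2 fold change of -6.36 (SE 0.323, edgeR adjusted p = 1.70e-06). Unlike IZUMO1, it remained well above the detection floor in each cattle–yak.

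ADAM2, also called fertilin beta, is a membrane protein of the ADAM family that sperm need for migration through the oviduct and binding of the egg coat. It had 39532, 30723 and 38041 counts in mature yak, or 1219.25, 952.27 and 1284.5 FPKM. In cattle–yak it had 2230, 712 and 382 counts, or 23.36, 9.88 and 5.20 FPKM. The cattle–yaks differed 4.49-fold among themselves, with replicate 1 the highest. The same replicate also had the highest summed FPKM of 7 spermatocyte markers, 493 against 314 and 369 in replicates 2 and 3. Elongating spermatid markers summed to 26.4, 4.32 and 1.13 FPKM in replicates 1, 2 and 3, and round spermatid markers to 10.2, 8.8 and 4.68. These spermatid sums had the order of ADAM2, and the spermatocyte sum did not. TNP1 made up most of the elongating spermatid sum of replicate 1, at 23.5 FPKM, while GAPDHS was at 1.13 to 1.47 FPKM over the cattle–yak libraries. The part of spermatocytes or spermatids in the level of ADAM2 was not tested. The mean CPM of ADAM2 was 88.7-fold lower in cattle–yak, with a log2 fold change of -6.44 (SE 0.575, edgeR adjusted p = 2.79e-05). Without replicate 1 of cattle–yak it was 147-fold lower (log2 fold change -7.20). In both groups ADAM2 was the most translated of the 6 genes. It made up 68.2% to 87.5% of their summed FPKM in cattle–yak, a range that overlapped the 69.9% to 78.9% in mature yak.

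SPACA4, a small acrosomal protein with a lipid anchor that takes part in binding of the egg coat, had 1154, 1370 and 617 counts in mature yak. In cattle–yak it had 13, 2 and 0 counts. Its FPKM was 158.16, 187.07 and 92.30 in mature yak against 0.60, 0.13 and 0 in cattle–yak. The mean CPM was 600.2-fold lower, with a log2 fold change of -8.98 (SE 0.621, edgeR adjusted p = 7.18e-06). Nearly all cattle–yak counts were in replicate 1, and without that library SPACA4 was at least 768-fold lower.

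**Figure D2:**
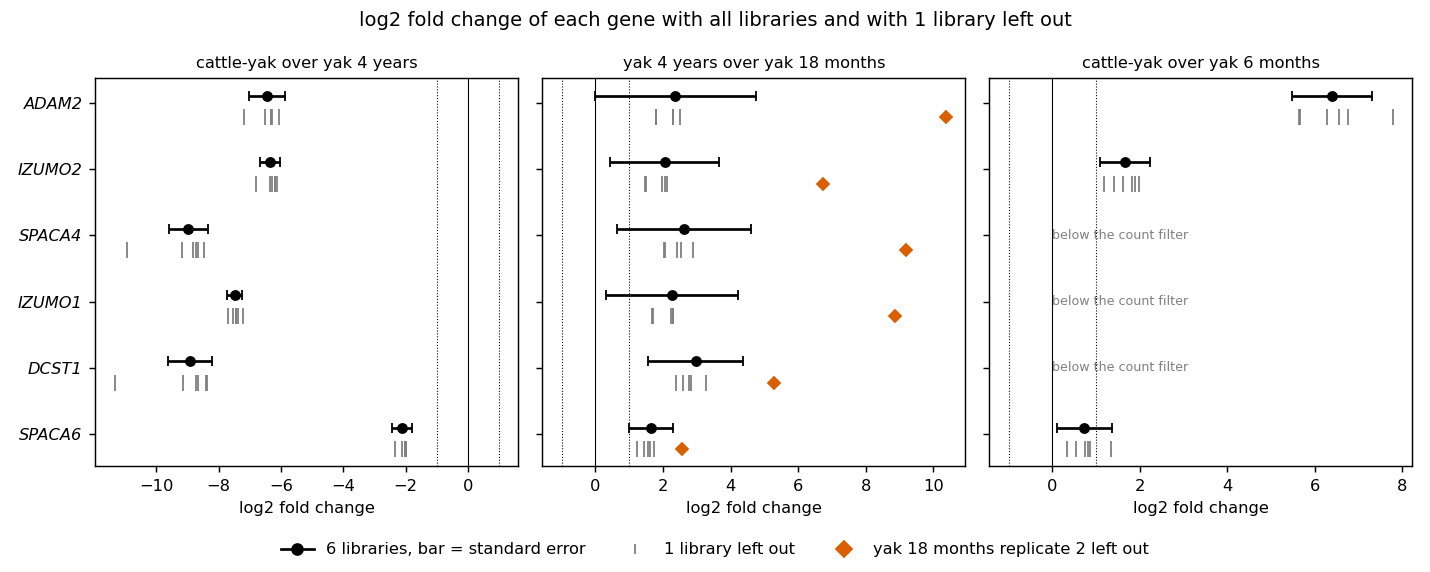
log2 fold change of each gene (x axis) in 3 comparisons. Black points are fits of 6 libraries with the standard error as a bar, grey ticks are fits without 1 library, and orange diamonds are fits without replicate 2 of yak at 18 months. In cattle–yak over mature yak all values lie between -11.34 and -1.98, while in mature yak over yak at 18 months the diamonds lie apart, from 2.57 for SPACA6 to 10.38 for ADAM2.

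The 4 genes without a symbol, whose choice by description was made after the tables were seen, fell too. The gene described as TMEM95 (ENSBGRG00000020097), a fusion protein, had 206, 239 and 176 counts in mature yak and 1, 0 and 0 counts in cattle–yak, and was at least 168-fold lower (edgeR adjusted p = 1.28e-06). The gene described as acrosin (ENSBGRG00000006015), the main serine protease of the acrosome, had 7163, 8538 and 5634 counts against 73, 22 and 11, and its mean CPM was 546.5-fold lower (edgeR adjusted p = 2.75e-06), or 955-fold without replicate 1 of cattle–yak. These groups did not overlap. Of the hyaluronidase PH-20, 2 genes carry the description. The first (ENSBGRG00000024538) had 5596, 6185 and 3686 counts against 21, 2 and 0, a mean CPM 1967-fold lower (edgeR adjusted p = 3.53e-06), or at least 3796-fold without the same replicate. The second (ENSBGRG00000024255), described as partial, had 665, 597 and 640 counts against 91, 19 and 6, a mean CPM 46.3-fold lower (edgeR adjusted p = 0.000139), or 113-fold without that replicate. The authors' counting could split reads between similar copies, so the values of the PH-20 genes are uncertain. The partial gene retained 2.20% of its mature yak mean FPKM, which was 0.893% without replicate 1 of cattle–yak, and the other PH-20 gene retained 0.0516%.

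Markers of spermatids were lower in cattle–yak as well. Round spermatids are the first cells after meiosis, and 6 of 7 listed markers were found. Their summed FPKM was 1284 to 1850 in mature yak and 4.68 to 10.2 in cattle–yak. Of 7 elongating spermatid markers 3 were found (TNP1, ODF1 and GAPDHS), with summed FPKM of 8152 to 11202 against 1.13 to 26.4. TNP1, which packs DNA during nuclear condensation, was at 0 in at least 1 cattle–yak library. All 7 spermatocyte markers were found, at 750.5 to 804 against 314 to 493, and 6 spermatogonial markers were at 604 to 890 against 1267 to 1413. Of the spermatogonial markers UCHL1, ZBTB16, DMRT1 and NANOS3 were higher in cattle–yak without overlap. GFRA1, at 1.33 to 3.24 against 2.46 to 5.02 FPKM, and KIT, at 39.4 to 47.3 against 43.5 to 56.5, overlapped. The spermatocyte markers did not move alike. PIWIL1 was at 295 to 361 FPKM in mature yak against 7.40 to 31.9 in cattle–yak, and HORMAD1 at 189 to 244 against 166 to 181. SYCP3 went the other way, at 59.7 to 78.4 against 77.9 to 148, with a slight overlap. Set beside mature yak, the round spermatid markers stood at 0.282% to 0.612% in the cattle–yak libraries. The group mean was 0.552% for IZUMO1, 0.205% for DCST1, 0.167% for SPACA4, 1.11% for ADAM2, 1.22% for IZUMO2 and 23.0% for SPACA6. The part of cell composition in the fall of each gene was not tested.

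**Figure D3:**
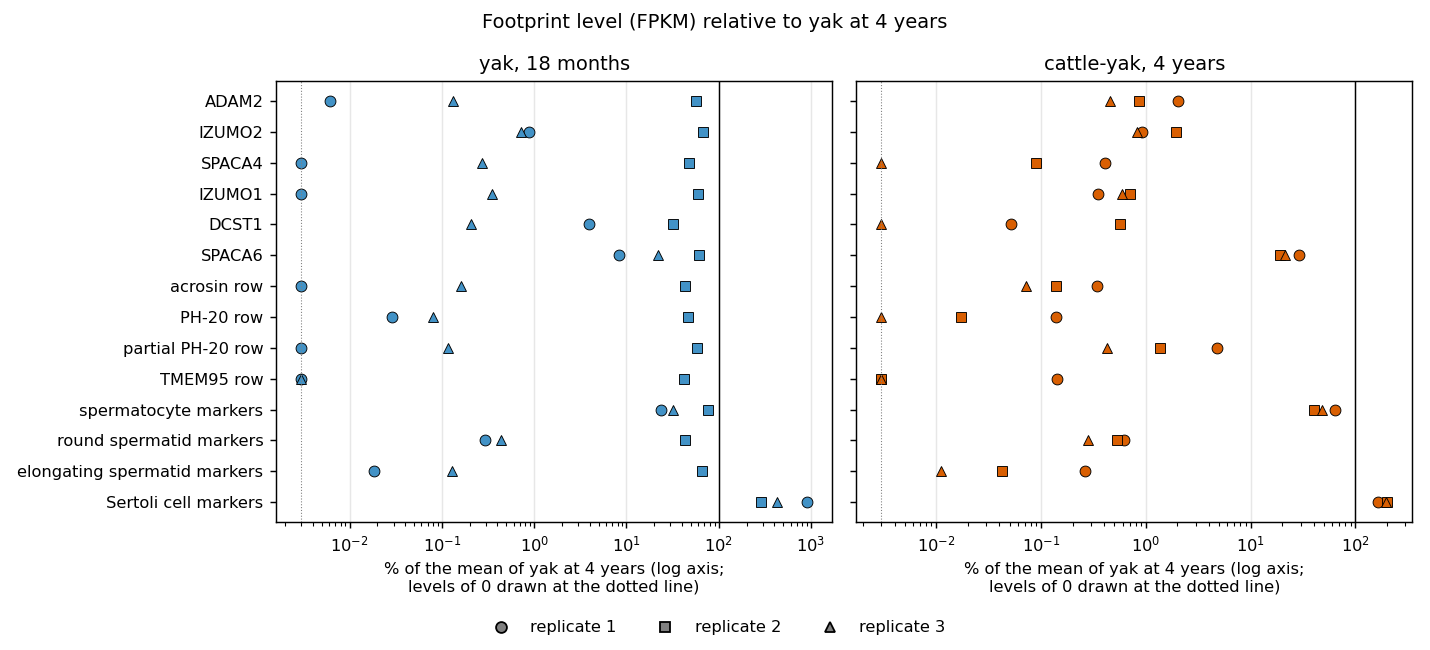
RF level in FPKM as a percentage of the mean of yak at 4 years (log axis, line at 100), for the 6 genes, the 4 genes matched by description and the summed markers of 4 cell types, with 1 point per library. Levels of 0 are drawn at the dotted line. In cattle–yak (right) SPACA6 stood at 23.0% on average, beside 1.22% or less for the other 5 genes. In yak at 18 months (left) replicate 2 lies between 32.2% and 68.2% for the 6 genes, and replicate 3 at 21.8% for SPACA6.

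The course over age was examined in yak. At 6 months the genes were barely translated. IZUMO1 and SPACA4 had 0 counts in each of the 3 libraries, which allows up to 0.0807 to 0.116 CPM. ADAM2 had 12, 0 and 5 counts and IZUMO2 had 10, 11 and 6. SPACA6 had 2, 22 and 11 counts and DCST1 had 5, 21 and 14. The summed FPKM of the 6 genes was 0.98 to 1.33, against 1362 to 1628 in mature yak. Round spermatid markers summed to 1.28 to 2.60 FPKM at this age.

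At 18 months the levels differed by animal, with replicate 2 above replicates 1 and 3 and below mature yak. The summed FPKM of the 6 genes was 2.61, 867 and 4.12 in replicates 1, 2 and 3. In replicate 2, ADAM2 had 25107 counts (648.76 FPKM), IZUMO2 1623 (114.32 FPKM), IZUMO1 606 (27.11 FPKM), SPACA4 600 (68.68 FPKM), DCST1 276 (6.28 FPKM) and SPACA6 47 (2.22 FPKM). In replicate 1, ADAM2 had 3 counts, IZUMO2 23, IZUMO1 0, SPACA4 0, DCST1 38 and SPACA6 7. In replicate 3 the counts were 66 for ADAM2, 20 for IZUMO2, 4 for IZUMO1, 4 for SPACA4, 2 for DCST1 and 19 for SPACA6. Replicate 2 held 68.2% of the mature mean FPKM for IZUMO2, 61.2% for SPACA6, 59.9% for IZUMO1, 56.3% for ADAM2, 47.1% for SPACA4 and 32.2% for DCST1. All 6 genes were below the lowest mature yak in this animal too. The genes matched by description had 108 counts for TMEM95, 3788 for acrosin, and 2892 and 458 for the PH-20 genes in the same library, or 42.5% to 58.1% of their mature means. Round spermatid markers summed to 723.5 FPKM in replicate 2 and to 4.85 and 7.27 in replicates 1 and 3, and elongating spermatid markers to 6663 against 1.84 and 13.1. The labels give all 3 animals the same age and stage, and the part of maturity, tissue sampling or library preparation was not tested.

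With all libraries, none of the 6 genes was a DTG between 18 months and 4 years, where 0.0371% of 16175 genes were called by edgeR. SPACA6 had an unadjusted p below 0.05 in edgeR. DESeq2 called DCST1 (log2 fold change 3.05, adjusted p = 0.0459), beside 16.5% of 19576 genes called there. The log2 fold changes were 1.64 to 2.97 in the direction of mature yak, with standard errors of 0.650 for SPACA6 and 1.40 to 2.39 for the others. The mature libraries lay above every library of 18 months for each of the 6 genes, as 47.9% of genes with a count did not overlap in either direction. Without replicate 2, all 6 genes were DTGs that rose, with 44.6% of all genes tested now called in either direction. ADAM2 then rose by 10.38 on the log2 scale (edgeR adjusted p = 0.000261), SPACA4 by 9.20 (adjusted p = 6.64e-05) and IZUMO1 by 8.87 (adjusted p = 2.60e-05). IZUMO2 rose by 6.73 (edgeR adjusted p = 1.02e-05), DCST1 by 5.30 (adjusted p = 0.00313) and SPACA6 by 2.57 (adjusted p = 0.00412).

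Between 6 and 18 months, 4 genes passed the filter on low counts and none was a DTG, beside 0.0672% of 14874 genes called by edgeR. IZUMO2 and ADAM2 had an unadjusted p below 0.05, and DESeq2 called neither, since it gave no adjusted p for these genes. The log2 fold change was 10.49 for ADAM2 (SE 3.37, edgeR adjusted p = 0.125), 6.01 for IZUMO2 (SE 1.90, adjusted p = 0.122), 3.18 for DCST1 (SE 1.40, adjusted p = 0.206) and 1.27 for SPACA6 (SE 0.875, adjusted p = 0.376). Of the 6 genes IZUMO2 was the only one whose groups did not overlap, while 33% of genes with a count did not. Without replicate 2 of 18 months the log2 fold changes were 2.33 for ADAM2 (edgeR adjusted p = 0.395), 1.29 for IZUMO2 (adjusted p = 0.301), 0.86 for DCST1 (adjusted p = 0.689) and 0.32 for SPACA6 (adjusted p = 0.869). The mean CPM of IZUMO1 and SPACA4 at 18 months was at least 97.1-fold and 96.1-fold higher than the floor of 3 counts per library at 6 months, which rested on replicate 2. Without it both were below that floor.

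Cattle–yak was also set beside the younger yaks. Over yak at 6 months, 3 genes passed the filter and 2 were DTGs that rose, ADAM2 and IZUMO2, beside 18.1% of 15571 genes that rose, 19.7% that fell and 37.8% called in either direction. A gene near 0 at 6 months, as ADAM2 was, passed the filter through its cattle–yak counts and could hardly be called lower. ADAM2 had 2230, 712 and 382 counts against 12, 0 and 5, and its log2 fold change was 6.40 (SE 0.912, edgeR adjusted p = 0.000561). It kept this call without any 1 library. IZUMO2, at 55, 82 and 35 counts against 10, 11 and 6, had a log2 fold change of 1.66 (SE 0.564, edgeR adjusted p = 0.0332). Its call was lost without replicate 2 or 3 of yak at 6 months (adjusted p = 0.0890 and 0.0947) and without replicate 1 or 2 of cattle–yak (adjusted p = 0.0537 and 0.138). SPACA6 was not a DTG, with a log2 fold change of 0.73 (SE 0.632, adjusted p = 0.346), although its groups did not overlap in CPM. IZUMO1 was present in each cattle–yak and in no yak at 6 months, and its mean CPM was at least 2.69-fold higher than the floor of 3 counts per library. It was too low for the filter, and with no filter edgeR called it (adjusted p = 0.0178). DCST1 went the other way, with 1, 9 and 0 counts in cattle–yak against 5, 21 and 14, a mean CPM 4.82-fold lower. Its groups overlapped, it did not pass the filter, and with no filter it was not a DTG (edgeR adjusted p = 0.0832). SPACA4, at 13, 2 and 0 counts against 0 in each yak at 6 months, gave no fold that differs from the floor. In all, 4 of the 6 genes did not overlap between the groups, beside 60.4% of genes with a count. Of the genes matched by description acrosin was tested and rose (edgeR adjusted p = 0.00592). With 1, 0 and 0 counts at 6 months its mean CPM was at least 7.62-fold higher in cattle–yak than the floor there, or at least 4.36-fold without replicate 1 of cattle–yak. With no filter edgeR also called the partial PH-20 gene higher (log2 fold change 4.51, adjusted p = 0.0153). That fit called 31.9% of 19301 genes in either direction, but not TMEM95 or the other PH-20 gene. The partial gene was at least 8.07-fold above the floor, or 3.30-fold without replicate 1 of cattle–yak, and its groups did not overlap. Spermatocyte markers summed to 314 to 493 FPKM in cattle–yak and 125 to 188 at 6 months. At 6 months HORMAD1 made up nearly all of that sum, at 123 to 183 FPKM. Each other spermatocyte marker was at most 2.95 FPKM there, while in cattle–yak SYCP3 was at 77.9 to 148 and DMC1 at 22.5 to 82.3. Round spermatid markers summed to 4.68 to 10.2 FPKM in cattle–yak and 1.28 to 2.60 at 6 months. The part of either cell type in these differences was not tested.

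Over yak at 18 months, none of the 3 genes that passed the filter was a DTG, beside 5.8% of 15702 genes called by edgeR, and none of the 6 was free of overlap (33.9% of genes with a count were). IZUMO2 had an unadjusted p below 0.05. The log2 fold change was -4.24 for IZUMO2 (SE 1.75, adjusted p = 0.161), -4.04 for ADAM2 (SE 2.46, adjusted p = 0.301) and -0.44 for SPACA6 (SE 0.675, adjusted p = 0.674). DESeq2, in which the filter does not apply, called DCST1 lower (log2 fold change -5.91, adjusted p = 0.00345), beside 12.4% of 19565 genes called in either direction. DESeq2 was not run without replicate 2 of 18 months. The direction turned when replicate 2 of 18 months was left out, with log2 fold changes of 3.92 for ADAM2 (edgeR adjusted p = 0.0477), 0.37 for IZUMO2 (adjusted p = 0.644) and 0.45 for SPACA6 (adjusted p = 0.600). That fit called 15.3% of 16139 genes in either direction. Beside replicates 1 and 3 of 18 months, ADAM2 was higher in cattle–yak, at 5.20 to 23.36 FPKM against 0.07 and 1.52. Spermatid markers were low on both sides. Round spermatid markers summed to 4.68 to 10.2 FPKM in cattle–yak against 4.85 and 7.27, and elongating spermatid markers to 1.13 to 26.4 against 1.84 and 13.1. Spermatocyte markers summed to 314 to 493 FPKM against 181 and 244. The part of any cell type in this difference was not tested.

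Related genes outside the 6 were taken from 3 lists. Of 24 other genes of gamete binding and fusion, 11 were found and tested between cattle–yak and mature yak, and 10 of them fell, beside 27% of all genes tested, with a median log2 fold change over the 11 of -5.94. The highest in mature yak was SPACA1, a protein of the acrosomal membrane that is also one of the round spermatid markers, at 577 ± 133 FPKM against 2.50 ± 1.08 (log2 fold change -7.87, edgeR adjusted p = 1.41e-06). CRISP2, a sperm protein linked to gamete interaction, was at 516 ± 87.7 against 0.403 ± 0.493 FPKM (log2 fold change -10.14, adjusted p = 4.44e-06). CD9, which in fertilization acts on the egg and is made by many cell types, was the 1 gene that was not a DTG, at 552 ± 16.6 against 775 ± 93.4 FPKM (log2 fold change 0.50, adjusted p = 0.00778).

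ADAM proteins of sperm need chaperones of the endoplasmic reticulum to fold and to reach the surface. Of 15 listed ADAM genes and such factors 8 were found and tested, and 6 fell (27% over all genes tested), with a median of -6.11. The chaperone CLGN (calmegin), which folds the ADAM2 complex, was at 2634 ± 337 FPKM in mature yak and 271 ± 25.9 in the hybrid (log2 fold change -3.27, edgeR adjusted p = 1.61e-06). CALR3, a calreticulin of male germ cells, was at 2502 ± 261 against 43.9 ± 20.6 FPKM (log2 fold change -5.81, adjusted p = 5.09e-06). PDILT, a relative of protein disulfide isomerase found in testis, was at 600 ± 71.7 against 0.590 ± 0.687 FPKM (log2 fold change -9.88, adjusted p = 2.44e-05). The enzymes PGAP1 and TPST2, which many cells use, were not DTGs, with log2 fold changes of -0.90 and -0.30.

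Of 14 acrosomal proteases, their partners and hyaluronidases 11 were found, 10 were tested and 7 fell (again beside 27%), with a median of -3.93. PRSS37, a protease-like protein of sperm, was at 1164 ± 240 against 0.790 ± 1.21 FPKM (log2 fold change -10.35, edgeR adjusted p = 3.59e-05). ACRBP, which binds the precursor of acrosin, was at 445 against 4.31 FPKM on average (log2 fold change -6.67, adjusted p = 2.98e-06). SERPINA5, a protease inhibitor that other tissues also secrete, was at 1092 against 1322 FPKM and was not a DTG (log2 fold change 0.29, adjusted p = 0.183), nor were the hyaluronidases HYAL1 and HYAL2. The hyaluronidase HYAL3 fell (log2 fold change -3.94, edgeR adjusted p = 8.87e-06), and HYAL4 did not pass the filter.

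Over yak at 6 months, some of these genes were higher in cattle–yak, where 18.1% of all genes tested rose and 19.7% fell. In the gamete binding list 5 of 8 tested rose and none fell, namely LYPD4, ZPBP, IZUMO4, SPACA1 and PKDREJ, which were picked out here because they rose. A gene near 0 at 6 months passed the filter through its cattle–yak counts, so it could hardly be called lower. SPACA1, for instance, had 0.430 FPKM at that age and IZUMO4 0.627. IZUMO3, TMEM81 and CRISP2 did not pass. The share that rose in these lists is therefore partly set by the filter. LYPD4, a relative of SPACA4, was at 9.38 ± 3.58 FPKM in cattle–yak and 0.0533 ± 0.0551 at 6 months (log2 fold change 6.80, edgeR adjusted p = 7.90e-05), which was 8.38% of its mature mean. In the ADAM list CALR3 (log2 fold change 3.62, adjusted p = 6.87e-05) and ADAM32 (2.50, adjusted p = 0.00219) rose, and TPST2 fell (-1.82, adjusted p = 0.000571), of 6 tested. In the acrosomal list PRSS21, a membrane-bound sperm protease, and TMPRSS12 rose and SERPINA5, HYAL2 and PCSK4 fell, of 8 tested. Between 6 and 18 months no gene of the 3 lists was a DTG, and between 18 months and 4 years none was with all libraries. Without replicate 2 of 18 months, 10 of 11, 7 of 8 and 7 of 10 rose to 4 years and 1, 0 and 1 fell, beside 26.1% of 16377 genes that rose and 18.5% that fell in that fit.

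**Figure D4:**
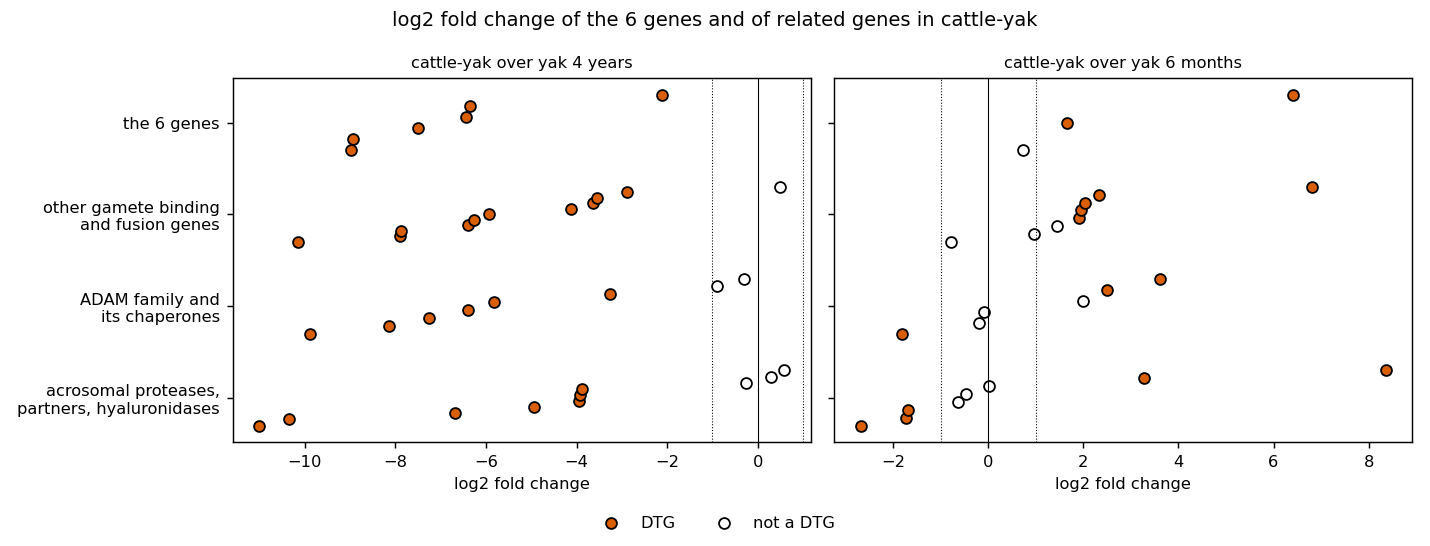
log2 fold change (x axis) of the 6 genes and of the genes in 3 related lists, in cattle–yak over yak at 4 years (left) and at 6 months (right). Each point is 1 tested gene, filled where it was a DTG, and points are spread vertically only to separate them. On the left, 6 of 6, 10 of 11, 6 of 8 and 7 of 10 genes fell, and on the right ADAM2 at 6.40 is the highest of the 3 that passed the filter.

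Across the 12 libraries the 6 genes followed one another closely, with Pearson's r of log2(FPKM + 1) of 0.897 to 0.996 between pairs as a description. These libraries share their groups, so the pairs are not independent. The genes whose profile was most like the mean of the 6 were PRX, ARMC12, SPATA16, RSPH9 and RIBC2, with r of 0.998 to 0.999 over 12 libraries. SPATA16 was at 47.6 FPKM in mature yak, 0.850 in cattle–yak and 23.7 in replicate 2 of 18 months. Of 6643 genes considered, 622 had r above 0.95, so a profile of this kind was common.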

How the data were processed

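Per the labels and the study's methods, RFs were freed of rRNA with probes and RNase H, trimmed with fastp, cleared of rRNA with Bowtie2, kept by length and aligned to the yak genome (BosGru build) with STAR. The authors obtained expected counts per gene from RSEM, and these are whole numbers with no normalization. The deposited FPKM was computed by the authors from these counts, the effective gene length and the library total. Strand of counting is not given in the sources used here. RFs of the hybrid were aligned to yak alone, and an effect on the genes was not tested. Deposited group means, fold changes and p-values of the authors' comparisons were not used.

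Each group held 3 libraries, taken as 3 animals. Only the 6 libraries compared entered a fit: filterByExpr, TMM and edgeR's quasi-likelihood test (R 4.3.3, edgeR 4.0.16), with Benjamini-Hochberg adjustment over all genes tested. The DTG thresholds were 0.05 for the adjusted p and 1 for the size of the log2 fold change. Standard errors were approximated as the size of the log2 fold change over the square root of F. Folds of mean CPM were taken without TMM. Alternatives were DESeq2 1.42.0, limma 3.58.1 on log2(FPKM + 1) or log2(FPKM + 0.1), other scaling, no filter, all 12 libraries, a replicate block and each library left out. Totals were 16304058 to 52616039 counts. Every gene of the list was named, with up to 3 genes per related list by FPKM in mature yak and the 5 most like profiles among genes of at least 10 FPKM on average. Genes, lists and markers were chosen with earlier results of these data known.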

Additional observations from a re-analysis of the deposited data

How the results depend on the processing

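In cattle–yak over mature yak all 6 genes kept their direction and call under every alternative run, and the count was 10 of 10 with the genes matched by description. In cattle–yak over yak at 6 months the count of 2 was 3 in DESeq2, 3 with no filter and 2 to 3 with 1 library left out. DESeq2 called 32.7% of all genes tested there, and the fit with no filter 31.9%. With 1 library left out ADAM2 was called in all 6 fits, IZUMO2 in 2 and SPACA6 in none. The genes behind that count therefore changed, and some had not passed the filter with all 6 libraries. The count fell to 0 with all 12 libraries in 1 fit (ADAM2 6.35, edgeR adjusted p = 0.0591, IZUMO2 1.68, adjusted p = 0.365) and to 1 with the replicate block. These fits called 32.1% and 36% of all genes tested. Replicate numbers did not pair the libraries: deviations of same-numbered libraries correlated at -0.33 to 0.16 over the 5 comparisons. Elsewhere the block left the counts at 6, 0, 0 and 0. The count between 6 and 18 months was 3 with all 12 libraries (IZUMO1, IZUMO2 and ADAM2) and 0 to 2 with 1 library left out, 2 without replicate 1 of 18 months. Of all genes tested, 15.7% were called with all 12 libraries and 16.8% without that replicate, beside 0.0672% in the main fit. Between 18 months and 4 years the count was 1 in DESeq2 and 0 to 6 with 1 library left out. DESeq2 called 16.5% of all genes tested there, and the fit without replicate 2 of 18 months 44.6%. In cattle–yak over yak at 18 months the count was 1 in DESeq2, 1 with all 12 libraries and 0 to 1 with 1 library left out. In that comparison 12.4% of all genes tested were called in DESeq2 and 15.5% with all 12 libraries. There ADAM2 reversed to 0.93 in limma on log2(FPKM + 0.1), 1.59 with the replicate block and 3.92 without replicate 2 of 18 months, which also turned IZUMO2 to 0.37 and SPACA6 to 0.45. With 1 library left out the lowest and highest values were -4.84 and 3.92 for ADAM2, -4.79 and 0.37 for IZUMO2, and -0.84 and 0.45 for SPACA6. The cause was not tested. Of 304 values of single genes under alternatives, 281 kept direction and call. Scaling by library size alone moved the median log2 fold change of all genes in cattle–yak over yak at 6 months from -0.018 to 0.52 and the share of DTGs that fell from 52.1% to 27.8%, with ADAM2 and IZUMO2 still called. With 3 animals per group, and counts of 0 to 13 for IZUMO1, SPACA4 and DCST1 in cattle–yak, depth limits those values.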
